A study of Rattus norvegicus with 16 samples.

Results

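The left ventricle of rats 16 weeks after an aortocaval fistula (ACF), the time the study treats as its heart failure phase, was compared with that of control rats across all gene classes. The comparison used 8 of the 16 arrays of the series, the 4 titled as 16 weeks after ACF and the 4 titled as baseline. All were left ventricles of adult male Sprague-Dawley rats, with 1 array per animal. The labels call the control animals both baseline and control, and the series design names a sham group, so a difference in age or surgery between controls and ACF rats cannot be told apart from the fistula itself. Sprague-Dawley rats are outbred, so the animals of a group also differ in genotype.

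In this model a surgical opening between the abdominal aorta and the inferior vena cava returns arterial blood directly to the heart. The heart is loaded by volume rather than by pressure, the ventricle dilates with eccentric hypertrophy, and congestion follows after a long compensated period. Natriuretic peptides released from stretched cardiomyocytes, a remodelled extracellular matrix, resident and recruited macrophages and a lower oxidative capacity are the best known features of failing myocardium. A whole ventricle holds cardiomyocytes, fibroblasts, endothelial cells and leukocytes together, so a change in the number of cells of a type cannot be told apart from a change in the RNA per cell.

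The values were log2 intensities, from which each array's median over its 31099 probe sets was subtracted, so that 0 is the middle of an array. A gene was represented by its probe set with the highest mean, which gave 14218 genes, and every difference below is a log2 difference between the means of 4 arrays at 16 weeks and 4 control arrays, with its standard error (SE) from limma. No detection calls were used, so a low value may be background: 10% of the centred values on the control arrays lay below -2.45. Before subtraction, the medians lay at 2 levels. The 4 control arrays and replicates 1 and 2 at 16 weeks were at 6.13 to 6.17, and replicates 3 and 4 at 16 weeks were at 5.93 and 5.92.

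The tissue label was checked against markers, which were chosen with earlier results of these data known. The mean of 16 ventricular cardiomyocyte markers was 7.13 to 7.26 in the controls and 6.98 to 7.27 at 16 weeks, and the ventricular light chain Myl2 was 8.05 to 8.23 in the controls and 8.15 to 8.24 at 16 weeks. Atrial markers were uneven within groups. The atrial light chain Myl7 was -0.33, 5.19, -0.45 and 6.34 in control replicates 1 to 4 and -0.57, 4.01, 1.17 and 1.04 at 16 weeks. Control replicate 4 also had the highest Myl4 and Sln values of the 8 arrays, at 3.60 and 2.50. The same array had the highest control values of several matrix genes, so counts of the matrix lists are also given without it. The part of atrial tissue in any result was not tested.

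**Figure D1:**
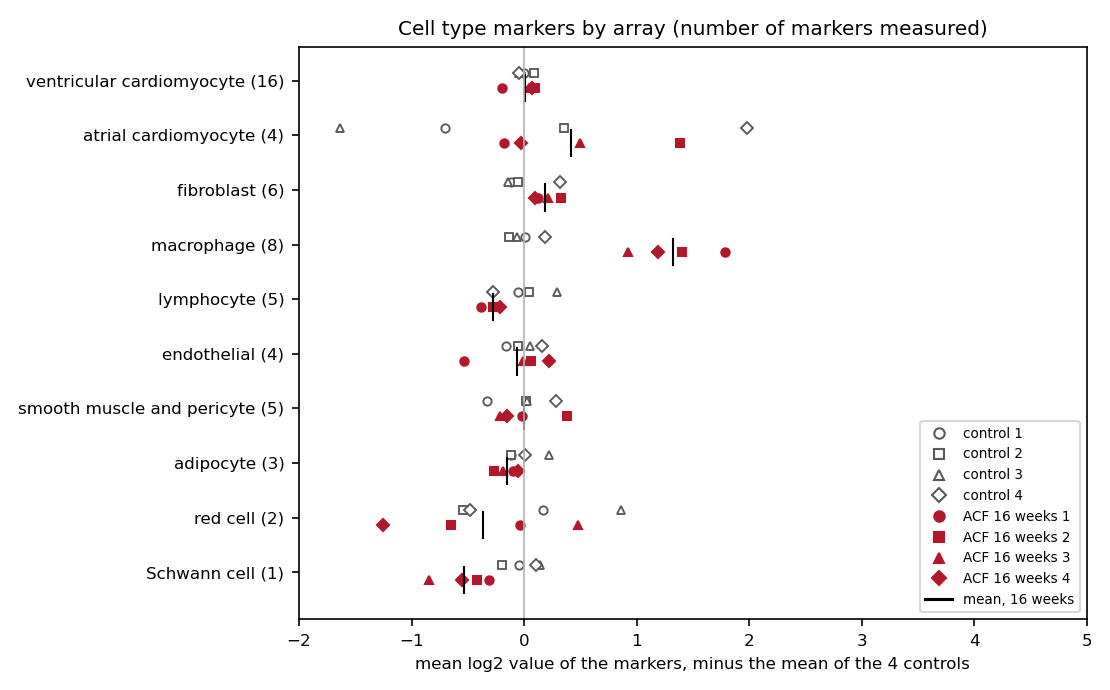
Mean log2 value of each cell type's markers on the 4 control arrays (open symbols) and the 4 arrays at 16 weeks (red symbols), as a difference from the control mean, with the number of markers measured. The 8 macrophage markers were at 1.53 to 1.85 in the controls and 2.59 to 3.45 at 16 weeks with no overlap, whereas the 4 atrial markers spread most widely among the controls, from 0.92 to 4.54. All 8 macrophage markers are also members of the macrophage list described below, so the panel is not separate evidence.

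Of the 14218 genes, 829 were higher at 16 weeks (5.83%) and 463 were lower (3.26%) at an adjusted p under 0.05, 1292 in all (9.09%). Counts of called list members below are to be read against these shares. All 4 arrays at 16 weeks lay above all 4 controls for 1436 genes (10.1%) and below them for 898 (6.32%). For such genes the exact two-sided permutation test gave p = 0.0286, the smallest value that 4 against 4 arrays allow. The balance of directions depended on the centring. Without centring, 359 genes were higher and 1006 lower with the median of all genes at -0.12, after quantile normalization 810 were higher and 752 lower, and with centring on the median of the 14218 genes 706 were higher and 714 lower. None of the 1292 calls changed sign under these 3 alternatives, and 2 did when the probe sets of a gene were averaged. Of the named called genes 63 had further probe sets, all dimmer, and 12 of these probe sets did not share the sign. Among the 12, those of Car4 and Egfr had a difference of 0. When each of the 8 arrays was left out in turn, 386 of the higher and 161 of the lower calls were kept in all 8 fits. Calls of named genes that were lost in this way are stated below with their highest adjusted p. An unpaired t-test of the 2 groups, adjusted over all genes, called 154 genes higher and 66 lower. By that test 8 of 30 macrophage, 1 of 16 matricellular, 6 of 19 elastic fibre, 4 of 24 complement and 1 of 21 fibroblast genes were higher. Lower were 1 of 34 fatty acid oxidation and 6 of 22 clock genes.

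**Figure D2:**
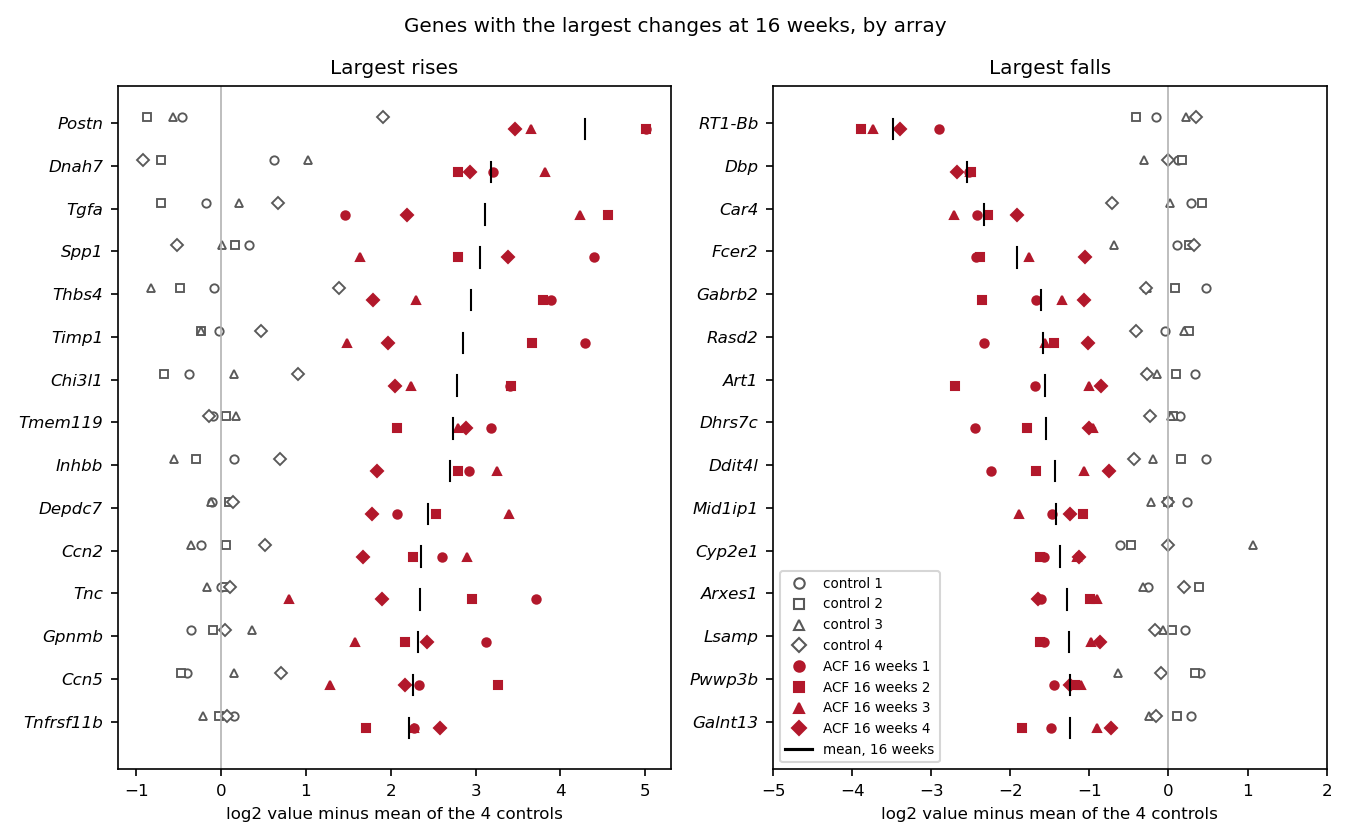
Log2 values of the 15 genes with the largest rises and the 15 with the largest falls, among called genes whose arrays at 16 weeks all lay outside the control range and which have more than a locus name. Open symbols are the 4 controls, red symbols the 4 arrays at 16 weeks and black lines their means, as differences from the control mean. Control replicate 4 was the highest control for Postn, at a log2 value of 2.07 before this subtraction, and for Thbs4, at 1.02.

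The largest rise was that of Postn, which encodes periostin, a secreted matricellular protein made by activated fibroblasts. Its values were -0.30, -0.71, -0.41 and 2.07 in the controls and 5.17, 5.17, 3.81 and 3.63 at 16 weeks. The difference was 4.28 ± 0.54 (adjusted p = 0.000416), and without control replicate 4 it was 4.92. Other secreted products rose nearly as steeply. Spp1 (osteopontin) was 0.02 to 0.87 in the controls and 4.93, 3.33, 2.18 and 3.92 at 16 weeks, a rise of 3.06 ± 0.54 (adjusted p = 0.00314). Timp1, an inhibitor of matrix metalloproteinases, was 0.89 to 1.60 in the controls and 5.42, 4.80, 2.61 and 3.10 at 16 weeks, a rise of 2.86 ± 0.45 (adjusted p = 0.00148). For both genes replicate 1 at 16 weeks was the highest and replicate 3 the lowest, and no array at 16 weeks reached the control range.

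Tgfa, which encodes an EGF receptor ligand, went from -1.92 to -0.54 in the controls to 0.25, 3.35, 3.02 and 0.98 at 16 weeks, a rise of 3.11 ± 0.67 (adjusted p = 0.00871). Inhbb, the activin B subunit, rose by 2.69 ± 0.43 (adjusted p = 0.00159) with all 4 arrays between 1.71 and 3.12 against -0.68 to 0.57. Chi3l1, a chitinase-like secreted glycoprotein, rose by 2.78 ± 0.41, and Tnfrsf11b (osteoprotegerin), a decoy receptor for RANKL, by 2.21 ± 0.26. The osteoprotegerin arrays were close together, at 0.34 to 1.21 at 16 weeks against -1.58 to -1.22. Tmem119, a membrane protein of bone-forming cells and microglia, was -0.79 to -0.47 in the controls and 1.42 to 2.53 at 16 weeks, a rise of 2.73 ± 0.41 (adjusted p = 0.00108).

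Dnah7, an axonemal dynein heavy chain, was the second largest rise, of 3.18 ± 0.52 (adjusted p = 0.00184), from a spread-out control group of -2.37 to -0.43 to 1.34 to 2.37. Depdc7 rose by 2.44 ± 0.48 from control values of -2.52 to -2.26, which lay near the lower end of the array. Gpnmb, a glycoprotein of phagocytes, rose by 2.33 ± 0.28 (adjusted p = 0.000289). The matricellular genes Thbs4, Ccn2, Tnc and Ccn5 complete the 15 and are given with the matrix.

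The largest fall was that of RT1-Bb, a class II histocompatibility gene, from 2.53 to 3.29 in the controls to 0.04, -0.95, -0.80 and -0.45 at 16 weeks. It fell by 3.48 in log2 with an SE of 0.96 (adjusted p = 0.032). The SD was 0.35 in the controls and 0.44 at 16 weeks, but the limma SE shares the spread of all groups. The arrays at 8 weeks ran from -0.57 to 2.99 and those at 24 weeks from -1.08 to 3.61. An unpaired t-test of the 2 compared groups gave an adjusted p of 0.0227. The same test kept 37 of the 156 named calls and lost those of Postn, Spp1 and Timp1 (adjusted p = 0.0614, 0.0711 and 0.102). The limma call was lost without any array except 16-week replicate 4 (adjusted p up to 0.0779). A second RT1-Bb probe set gave 1.21 ± 0.66, and RT1 genes are a polymorphic family of similar sequences, so this result is uncertain. Dbp, a clock output gene, was tight in both groups, at 3.29 to 3.77 in the controls and 0.93 to 1.10 at 16 weeks, and fell by 2.54 in log2 (SE 0.36, adjusted p = 0.000775).

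Car4, the membrane-bound carbonic anhydrase of capillaries and muscle, was 2.72, 2.86, 2.46 and 1.73 in the controls and 0.02, 0.16, -0.27 and 0.53 at 16 weeks. It fell by 2.33 in log2 (SE 0.39, adjusted p = 0.002), although a dimmer second probe set showed no difference. Dhrs7c, a dehydrogenase of the sarcoplasmic reticulum, was 5.11 to 5.49 in the controls and 2.90, 3.56, 4.39 and 4.35 at 16 weeks, with a difference of -1.55 ± 0.34 (adjusted p = 0.00919). Replicates 1 and 2 at 16 weeks were lower than replicates 3 and 4 for Dhrs7c, and likewise for Ddit4l, an inhibitor of mTOR signalling, which was 0.62, 1.19, 1.79 and 2.11 at 16 weeks against 2.42 to 3.34. Mid1ip1, an activator of acetyl-CoA carboxylase, fell by 1.42 in log2 (SE 0.19, adjusted p = 0.000616).

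The other large falls were of genes with varied roles. Fcer2, the low-affinity IgE receptor, differed by -1.91 ± 0.36, Gabrb2, a GABA receptor subunit, by -1.61 ± 0.34, and Rasd2, a small GTPase, by -1.59 ± 0.24. Art1, an ADP-ribosyltransferase of muscle, differed by -1.56 ± 0.33, Arxes1 by -1.29 ± 0.26, Lsamp, a neural adhesion protein, by -1.27 ± 0.25, Pwwp3b by -1.24 ± 0.24 and Galnt13, a glycosyltransferase, by -1.24 ± 0.28. Adjusted p for these 8 genes ran from 0.00108 to 0.0108. Dimmer probe sets gave smaller differences for Gabrb2 (-0.17), Rasd2 (-0.37) and Galnt13 (-0.01 and 0.08), and the average over Galnt13 probe sets was -0.39. Cyp2e1, a cytochrome P450, differed by -1.37 ± 0.41 (adjusted p = 0.0444), a call lost without any array except 16-week replicate 4 (adjusted p up to 0.148).

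Among the natriuretic peptides and their receptors, 2 of 7 measured genes were higher and none was lower. Nppa, atrial natriuretic peptide, was 6.90, 5.82, 4.20 and 5.71 in the controls and 8.26, 7.66, 7.84 and 7.74 at 16 weeks, a rise of 2.21 ± 0.45 (adjusted p = 0.00664). Its control values were spread by 1.11 (SD). Control replicate 3 was the lowest control for both Nppa and Myl7, whereas control replicate 1 was the highest for Nppa and low for Myl7. The part of atrial tissue in this spread was not tested. Nppb, brain natriuretic peptide, was 5.88 to 6.32 in the controls and 6.44 to 7.10 at 16 weeks. All 4 arrays lay above the controls, yet with a difference of 0.71 ± 0.22 the adjusted p was 0.0568 and the gene was not called. It was called with the replicate block (adjusted p = 0.038), with array level as a term (0.86, adjusted p = 0.037), on arrays at the higher level (0.96, adjusted p = 0.0498) and without 16-week replicate 4 (0.81, adjusted p = 0.0395). The clearance receptor Npr3 rose by 0.52 ± 0.15 (adjusted p = 0.0334), a call lost without any array except control replicate 1 and 16-week replicate 4 (adjusted p up to 0.0918).

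Calls among contractile genes differed by list. Of the fetal and stretch-response genes 22.7% were higher and of the adult sarcomere and Z-disc genes 5%, against 5.83% over all genes. Of the classical isoform genes none was called by limma, and the difference was 0.14 ± 0.11 for Myh7 (β-myosin heavy chain), -0.47 ± 0.22 for Myh6 (α-myosin heavy chain) and 0.08 ± 0.12 for Acta1 (skeletal actin). Adjusted p for these genes was 0.498, 0.186 and 0.746. Myh6 was 6.71 in replicate 1 at 16 weeks against 7.73 to 8.04 in the other 3, which overlapped the controls at 8.01 to 8.17. A second, dimmer Myh6 probe set gave -1.73 ± 0.50 (adjusted p = 0.0521 over all probe sets), and the average of both gave -1.10 (adjusted p = 0.064). The 5 higher genes among 22 fetal and stretch-response genes were Ccn2, Fhl1, Actn1, Ankrd2 and Rcan1, and 3 were higher without control replicate 1 or 2 or 16-week replicate 1. Fhl1, a sarcomeric stretch sensor, rose by 0.98 ± 0.18 (adjusted p = 0.00339) and Actn1, the non-sarcomeric α-actinin, by 1.13 ± 0.24 (adjusted p = 0.00867). Ankrd2, an ankyrin-repeat stretch gene, was 1.95 and 2.62 in replicates 1 and 2 at 16 weeks but 0.64 and 0.75 in replicates 3 and 4, against -0.03 to 0.43, and its call was lost without control replicate 1 or 2 or 16-week replicate 1 (adjusted p up to 0.0647). Rcan1, a calcineurin inhibitor, rose by 0.86 ± 0.25 (adjusted p = 0.0424), a call lost without any array except 16-week replicate 3 and 4 (adjusted p up to 0.117). Of 20 adult sarcomere and Z-disc genes only Pdlim5, a Z-disc scaffold, was called, with a rise of 0.37 ± 0.08 (adjusted p = 0.00919).

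Calcium handling genes were near 0 as a group, with a median of 0.02 and 3 of 23 called. Atp2a2 (SERCA2a) differed by 0.02 ± 0.07, phospholamban (Pln) by 0.08 ± 0.07 and the ryanodine receptor Ryr2 by 0.06 ± 0.08, and the adjusted p was 0.559 or more for each. The sign of these 3 small differences depended on the centring. Hrc, a calcium-binding protein of the sarcoplasmic reticulum, was 6.27 to 6.41 in the controls and 5.38, 5.63, 5.86 and 6.08 at 16 weeks, with a difference of -0.62 ± 0.13 (adjusted p = 0.00839). S100a1, a calcium sensor that raises contractility, was 2.72 to 2.82 in the controls and 2.12 to 2.36 at 16 weeks, with a difference of -0.56 ± 0.13 (adjusted p = 0.0155). The sodium-calcium exchanger Slc8a1 rose by 0.33 ± 0.10 (adjusted p = 0.0439), a call lost without any array except control replicate 4 (adjusted p up to 0.142).

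Among ion channels the called genes were lower. They were 3 of 22 potassium channel genes and 1 of 13 sodium channel, pacemaker channel and connexin genes, with medians of -0.17 and -0.15. Scn4b, a sodium channel β subunit, was 4.82 to 5.18 in the controls and 3.51, 3.67, 4.14 and 4.42 at 16 weeks, and fell by 1.04 in log2 (SE 0.25, adjusted p = 0.0153). The inward rectifiers Kcnj12 and Kcnj5 differed by -0.45 ± 0.11 and -0.66 ± 0.18, and Kcnh2, the hERG channel, by -0.38 ± 0.11. The call of Scn4b was lost without replicate 1 at 16 weeks (adjusted p = 0.056), that of Kcnj12 without control replicate 2 or 16-week replicate 2 (adjusted p up to 0.0543), and Kcnj5 without control replicate 1, 2 or 3 or 16-week replicate 3 or 4 (adjusted p up to 0.0816), and Kcnh2 without any array except control replicate 3 (adjusted p up to 0.119). Without control replicate 2, none of the 22 potassium channel genes was called by limma. The transient outward channel genes Kcnd2 (-0.53 ± 0.40, adjusted p = 0.452, but -1.25 with adjusted p = 0.0356 on arrays at the higher level) and Kcnip2 (-0.17 ± 0.20, adjusted p = 0.653) and connexin 43 (Gja1, 0.15 ± 0.12, adjusted p = 0.505) were not called.

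In adrenergic and renin-angiotensin signalling, 2 of 28 genes were higher and 4 lower. Grk5, a kinase that desensitizes G protein-coupled receptors, was 0.41, 0.54, 0.67 and 0.81 in the controls and 2.69, 2.67, 2.14 and 2.06 at 16 weeks. The groups were well apart and the rise was 1.78 ± 0.21 (adjusted p = 0.000289). Rgs2, which dampens Gq signals, rose by 1.52 ± 0.33 (adjusted p = 0.00893), with 3.07 to 4.45 at 16 weeks against 2.13 to 2.28. The α1-adrenergic receptors Adra1b and Adra1d fell by 1.01 and 0.92 in log2 (SE 0.18 and 0.21, adjusted p = 0.00315 and 0.0112). Adra1b was 2.71 to 3.39 at 16 weeks against 3.99 to 4.19. The β1 receptor Adrb1 differed by -0.13 ± 0.14 (adjusted p = 0.629). Apelin (Apln) and its receptor (Aplnr) were the other lower genes, at -1.14 ± 0.28 and -1.69 ± 0.52. The call was lost for Apln without control replicate 1 or 2 or 16-week replicate 2 (adjusted p up to 0.0709), and for Aplnr without any array except 16-week replicate 2 and 4 (adjusted p up to 0.136). Without control replicate 1 or 2, 2 of the 28 genes were lower. Of 21 cardiac transcription factors, Tead1 (0.37 ± 0.11, adjusted p = 0.0385) and Irx4 (0.78 ± 0.22, adjusted p = 0.0388) were higher, but the call was lost for Tead1 without any array except control replicate 3 and 16-week replicate 1 (adjusted p up to 0.139), and for Irx4 without control replicate 1, 3 or 4 or 16-week replicate 1 or 2 (adjusted p up to 0.117). A second Irx4 probe set gave -0.16.

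**Figure D3:**
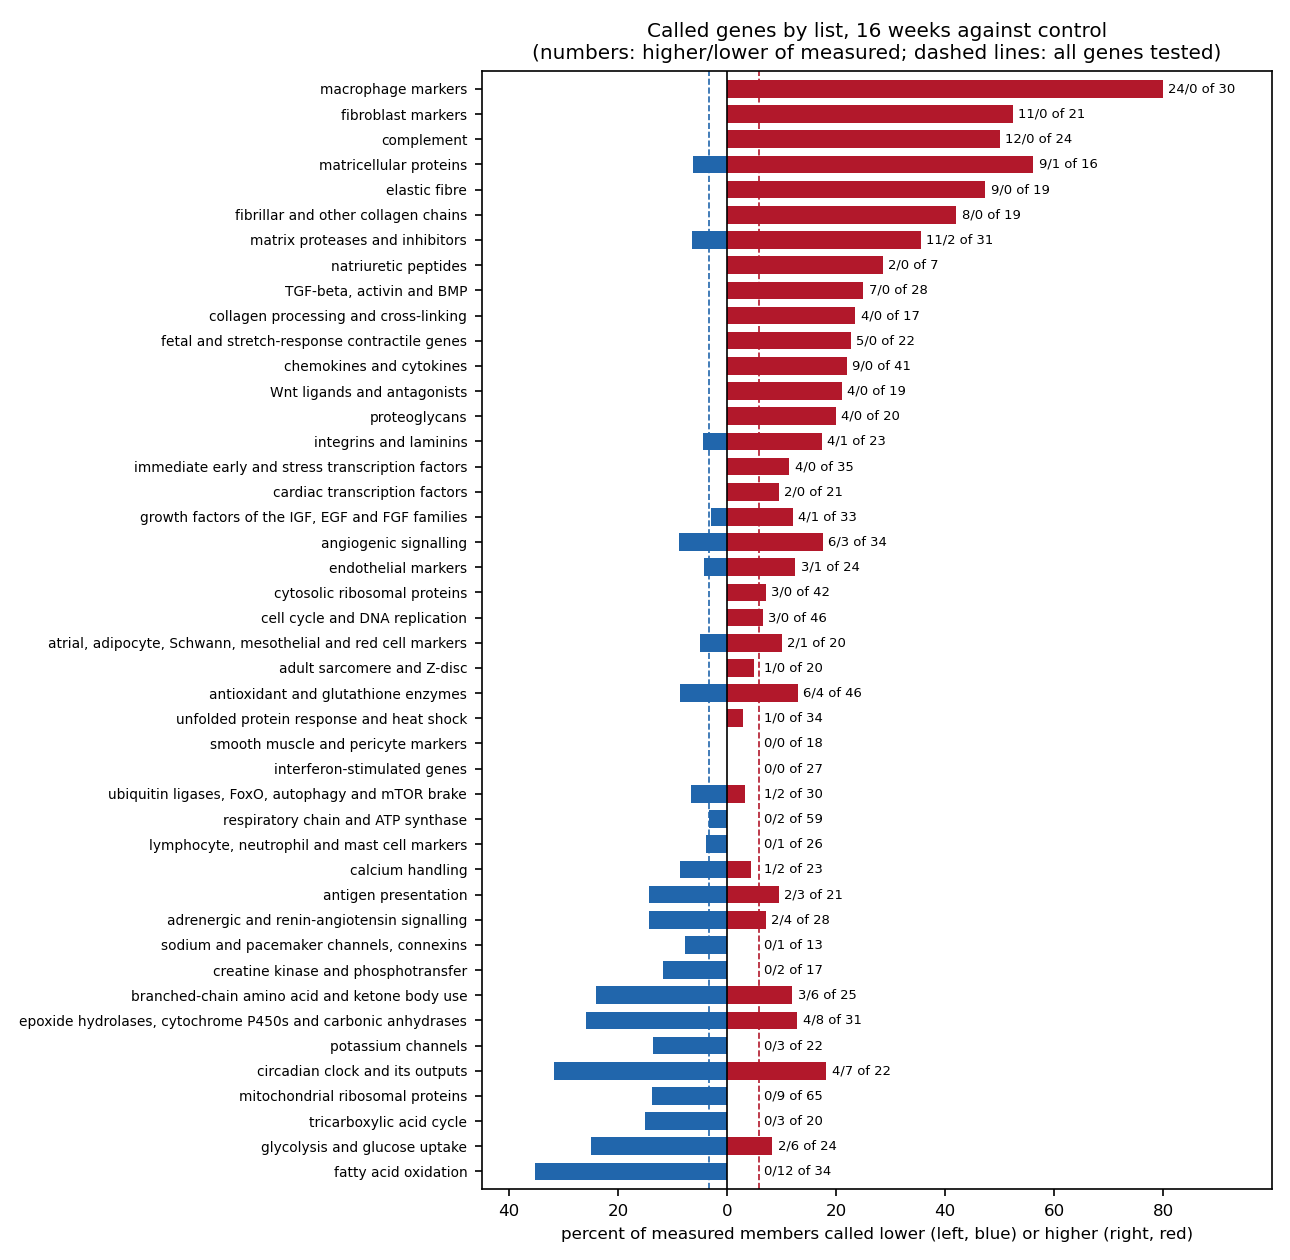
Percent of the measured members of each of the 44 gene lists called higher (red, to the right) or lower (blue, to the left) at 16 weeks, with the counts as higher/lower of measured. Dashed lines mark the 5.83% higher and 3.26% lower over all genes tested. Macrophage, fibroblast, complement and matrix lists stand at the top, and fatty acid oxidation, glycolysis and the tricarboxylic acid cycle at the bottom.

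Of 141 distinct genes of the extracellular matrix 46 were higher and 4 lower. Without control replicate 4 the higher genes were 9 of 19 collagens against 8 with it, 4 of 17 processing genes against 4, 10 of 19 elastic fibre genes against 9, 9 of 16 matricellular genes against 9, 5 of 20 proteoglycan genes against 4, 12 of 31 proteases and inhibitors against 11 and 4 of 23 integrins and laminins against 4. Col1a1 was 3.21 to 3.32 in control replicates 1 to 3, 4.01 in control replicate 4 and 3.59 to 4.20 at 16 weeks, and was not called (0.49 ± 0.20, adjusted p = 0.149), but without control replicate 4 the difference was 0.68 (adjusted p = 0.0414). Col3a1 rose by 0.45 ± 0.12 (adjusted p = 0.0328), a call lost without control replicate 1, 2 or 3 or 16-week replicate 1 or 2 (adjusted p up to 0.0993). The called collagens were 8 of 19, with a median of 0.32, and 4 without control replicate 1 or 16-week replicate 2. Col8a1, a short-chain collagen of vessel walls, was 0.77 to 1.35 in the controls and 2.38 to 3.13 at 16 weeks, a rise of 1.80 ± 0.27 (adjusted p = 0.00108). The fibril-associated collagens Col12a1 and Col14a1 rose by 1.64 ± 0.30 and 1.10 ± 0.19, and Col5a2, which nucleates fibrils, by 0.86 ± 0.20. A second probe set of Col12a1 gave -0.08.

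Of 17 collagen-processing genes 4 were higher and of 19 elastic fibre genes 9 were higher, with medians of 0.23 and 0.45. Lox, the lysyl oxidase that cross-links collagen and elastin, was 0.84 to 1.16 in the controls and 3.85, 2.87, 2.95 and 2.53 at 16 weeks, a rise of 1.99 ± 0.27 (adjusted p = 0.000591). Its relatives Loxl1 and Loxl2 rose by 1.72 ± 0.22 and 0.66 ± 0.15. Fibrillin-1 (Fbn1) was 2.27 to 2.97 in the controls and 3.88 to 4.40 at 16 weeks, a rise of 1.62 ± 0.21 (adjusted p = 0.000416), and the microfibril protein Mfap5 rose by 1.30 ± 0.20. Elastin itself (Eln) was 0.36 to 1.00 in the controls and 0.89 to 1.32 at 16 weeks. The groups overlapped, and its call (0.45 ± 0.13, adjusted p = 0.0431) was lost without any array except control replicate 4 and 16-week replicate 4 (adjusted p up to 0.131). The collagen lysyl hydroxylase Plod2 was 3.57 and 2.96 in replicates 1 and 2 at 16 weeks but 2.22 and 1.94 in replicates 3 and 4, against 1.51 to 1.82, and its call (1.06 ± 0.28, adjusted p = 0.0261) was lost without control replicate 1, 2 or 3 or 16-week replicate 1 or 2 (adjusted p up to 0.0786).

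Matricellular proteins, which signal from the matrix without building it, had the highest median of the 44 lists, at 1.22, with 9 of 16 higher. Thbs4 (thrombospondin-4) was -0.45, -0.85, -1.19 and 1.02 in the controls and 3.52, 3.43, 1.93 and 1.42 at 16 weeks, a rise of 2.94 ± 0.60 (adjusted p = 0.00636). Ccn2 (connective tissue growth factor) rose by 2.36 ± 0.37, with 5.58 to 6.81 at 16 weeks against 3.56 to 4.43, and Ccn5 by 2.26 ± 0.46. Tenascin-C (Tnc) was -2.70 to -2.43 in the controls, at the lower end of the arrays, and 1.17, 0.42, -1.74 and -0.64 at 16 weeks, a rise of 2.34 ± 0.40 (adjusted p = 0.00232). Fn1 (fibronectin) and Ccn3 rose by 1.46 ± 0.28 and 0.97 ± 0.24, and vitronectin (Vtn), a plasma and matrix adhesion protein, was the lower gene (-0.71 ± 0.19). Leaving out single arrays ended the call, for Ccn3 without control replicate 1 or 3 or 16-week replicate 1 (adjusted p up to 0.0615) and for Vtn without control replicate 1, 2 or 3 or 16-week replicate 1 or 3 (adjusted p up to 0.0754).

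Of 20 proteoglycan genes 4 were higher, and 2 without control replicate 1 or 3 or 16-week replicate 2. Versican (Vcan) rose by 1.59 ± 0.28 (adjusted p = 0.00305) and decorin (Dcn), which binds collagen fibrils, by 0.50 ± 0.10 (adjusted p = 0.00669), with 7.01 to 7.34 against 6.57 to 6.80. The hyaluronan synthase Has2 (0.69 ± 0.17) and the heparan sulfate proteoglycan Sdc2 (0.41 ± 0.13) were called with adjusted p of 0.0195 and 0.0495. Single arrays decided the call, which was lost for Has2 without control replicate 1 or 3 or 16-week replicate 2 (adjusted p up to 0.071) and for Sdc2 without any single array (adjusted p up to 0.146).

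Among proteases and their inhibitors 11 of 31 were higher and 2 lower, with a median of 0.36, and 8 were higher without replicate 1 at 16 weeks. The lysosomal cathepsins Ctss and Ctsb rose by 1.11 ± 0.15 and 0.74 ± 0.11 (adjusted p = 0.000617 and 0.00112). The tissue inhibitors moved apart. Timp2 rose by 0.73 ± 0.10 (adjusted p = 0.000848), whereas Timp4 was 2.59 to 2.82 in the controls and 1.31 to 1.83 at 16 weeks, with a difference of -1.06 ± 0.19 (adjusted p = 0.00319). Laminin chains and integrins gave 4 higher and 1 lower of 23, with a median of 0.10, which was -0.01 without centring. Lama5 and Lamc1, basement membrane chains, rose by 0.99 ± 0.18 and 0.75 ± 0.13, Itga9 and Itgb1 by 0.82 ± 0.17 and 0.55 ± 0.13, and Itga7, the laminin receptor of muscle, differed by -0.48 ± 0.11 (adjusted p = 0.0125). A dimmer probe set of Lama5 gave -0.01.

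Of 28 genes of the TGF-β, activin and BMP families 7 were higher and none lower, with a median of 0.28. Tgfb2 was 1.10 to 1.47 in the controls and 1.68 to 2.78 at 16 weeks, a rise of 0.98 ± 0.22 (adjusted p = 0.0121) that was 2.07 ± 0.28 at a second, dimmer probe set, while Tgfb1 differed by -0.03 ± 0.15 (adjusted p = 0.936). Fstl3, a secreted activin antagonist, rose together with the activin subunit Inhbb: it was 1.39 to 1.90 in the controls and 4.18, 3.84, 2.57 and 2.37 at 16 weeks, a rise of 1.69 ± 0.33 (adjusted p = 0.00504). Fstl1 rose by 0.94 ± 0.20 and Ltbp2, a latent TGF-β binding protein family member of elastic fibres, by 1.39 ± 0.26.

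In the Wnt pathway 4 of 19 genes were higher, and 2 without control replicate 1. They were the antagonists Dkk3 (0.89 ± 0.17) and Sfrp1 (1.12 ± 0.26) and the receptors Fzd1 (0.79 ± 0.18) and Fzd2 (0.70 ± 0.21). The call of Sfrp1 was lost without control replicate 1 (adjusted p = 0.0534) and that of Fzd2 without any array except 16-week replicate 1 and 3 (adjusted p up to 0.143). Of 33 genes of the IGF, EGF and FGF families 4 were higher and 1 lower, with 2 higher without control replicate 1 or 16-week replicate 2. Besides Tgfa its receptor Egfr rose by 0.82 ± 0.21 (adjusted p = 0.0202), a call lost without control replicate 1 or 2 or 16-week replicate 2 (adjusted p up to 0.0772) and not shared by a dim second probe set. Igf2r, which clears IGF2, rose by 0.50 ± 0.13 (adjusted p = 0.0204), a call lost without control replicate 1 or 16-week replicate 2 (adjusted p up to 0.0787). Igfbp6 rose by 0.68 ± 0.14 (adjusted p = 0.00588), and Fgf16, a growth factor made by cardiomyocytes, was 1.55 to 2.18 in the controls and 1.15 to 1.29 at 16 weeks, with a difference of -0.63 ± 0.13 (adjusted p = 0.00753).

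Macrophage markers had the largest share of called genes among the 44 lists, with a median of 1.05. All 4 arrays at 16 weeks lay above the controls for 25 of the 30 genes, against 10.1% over all genes. Called higher were 24 of the 30, against 5.83% over all genes. The count was 24 without control replicate 4 and 19 to 24 whichever array was left out. Mrc1, the mannose receptor, was 1.85 to 2.35 in the controls and 4.44, 3.56, 3.62 and 3.52 at 16 weeks, a rise of 1.72 ± 0.19 (adjusted p = 0.00019). The scavenger receptor Cd163 rose by 1.85 ± 0.23 and Csf1r, the receptor for macrophage colony-stimulating factor, by 1.06 ± 0.14. Cd68, a lysosomal protein, was 0.52 to 0.71 in the controls and 2.50, 1.89, 1.00 and 1.49 at 16 weeks, a rise of 1.13 ± 0.23 (adjusted p = 0.00655). Replicate 1 was the highest and replicate 3 the lowest at 16 weeks, as for the list as a whole. The pan-leukocyte marker Ptprc differed by 0.40 ± 0.17 and was not called (adjusted p = 0.144), while its dimmer probe set gave 0.46 ± 0.13 (adjusted p = 0.0457 over all probe sets).

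Other leukocyte lists did not move with the macrophages. Of 26 lymphocyte, neutrophil and mast cell markers none was higher, and Lck, a T cell kinase, was lower (-0.58 ± 0.15, adjusted p = 0.0215), with overlapping groups and a call lost without control replicate 1, 2 or 3 or 16-week replicate 1 (adjusted p up to 0.0779). None of 27 interferon-stimulated genes was called by limma in either direction. The invariant chain Cd74 was 5.79 to 6.21 in the controls and 4.89, 5.37, 5.40 and 5.69 at 16 weeks, and RT1-DMb, a class II peptide loading chain, 3.07 to 3.47 and 2.35 to 2.82. These genes differed by -0.63 ± 0.15 and -0.82 ± 0.21 (adjusted p = 0.0167 and 0.0241). In contrast the partner chain RT1-DMa rose by 0.62 ± 0.14 (adjusted p = 0.0128) with overlapping groups, and Cd86 rose by 0.36 ± 0.10. In all, 2 of 21 antigen presentation genes were higher and 3 lower, with none lower without control replicate 1 or 16-week replicate 1. The call was lost for Cd74 without control replicate 1 or 16-week replicate 1 (adjusted p up to 0.0649), RT1-DMb without control replicate 1, 3 or 4 or 16-week replicate 1 or 2 (adjusted p up to 0.0681) and for Cd86 without any array except control replicate 3 and 16-week replicate 1 (adjusted p up to 0.102).

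Complement genes were higher in 12 of 24, with a median of 0.54, and in 9 to 13 whichever array was left out. Colec11, a collectin that starts the lectin pathway, had the smallest adjusted p of the 44 lists. It was 0.75, 0.77, 0.65 and 1.26 in the controls and 2.86, 2.74, 2.73 and 2.67 at 16 weeks, a rise of 1.89 ± 0.19 (adjusted p = 0.000137). The C1q chains C1qa, C1qb and C1qc, which macrophages make, rose by 1.09 ± 0.14, 1.23 ± 0.20 and 1.06 ± 0.19. Among 41 chemokine and cytokine genes 9 were higher and none lower, and 5 were higher without control replicate 2. Beside Tnfrsf11b these included the interleukin-1 receptor Il1r1 (0.79 ± 0.15), the alarmin Il33 (0.74 ± 0.16) and the chemokine receptor Ccr1 (1.05 ± 0.24).

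The classical inflammatory cytokines were not called in the comparison of all arrays. Ccl2 was 0.58 to 0.84 in the controls and 2.00, 3.51, 0.83 and 2.54 at 16 weeks, with replicate 3 inside the control range (1.53 ± 0.56, adjusted p = 0.0957). It was called with array level as a term (2.37, adjusted p = 0.00532), on arrays at the higher level (2.07, adjusted p = 0.00434) and without 16-week replicate 3 (2.00, adjusted p = 0.0334). Il6 was -2.90 to -2.55 in the controls, near the floor of the arrays, and -2.54 to -1.47 at 16 weeks (0.50 ± 0.18, adjusted p = 0.0878), and was called without 16-week replicate 4 (0.61, adjusted p = 0.0441). Tnf differed by -0.25 ± 0.09 (adjusted p = 0.106).

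Of the stromal and vascular lists the fibroblast markers rose, with 11 of 21 higher and a median of 0.56. The count was 12 without control replicate 4 and 7 without control replicate 1 or 16-week replicate 1. Pi16, a marker of adventitial fibroblasts, was 1.87 to 2.68 in the controls and 3.27, 4.01, 4.12 and 4.25 at 16 weeks, a rise of 1.72 ± 0.32 (adjusted p = 0.00371), and Islr rose by 1.31 ± 0.25 (adjusted p = 0.00418). Several members of the list of 21 are matrix genes described above, so the lists are not separate evidence. Smooth muscle and pericyte markers gave no call among 18 by limma, with a median of 0.

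Endothelial markers were mixed. The pan-endothelial Pecam1 differed by 0.19 ± 0.15 (adjusted p = 0.454), and 3 of 24 were higher and 1 lower. Von Willebrand factor (Vwf) was 2.62 to 3.27 in the controls and 4.08 to 4.57 at 16 weeks, a rise of 1.31 ± 0.21 (adjusted p = 0.00156). Podoplanin (Pdpn) and Lyve1, both of lymphatic endothelium, rose by 1.06 ± 0.15 and 1.80 ± 0.29, and Lyve1 is also made by resident macrophages. The water channel Aqp1 was 5.38 to 5.54 in the controls and 4.41 to 4.95 at 16 weeks, with a difference of -0.70 ± 0.12 (adjusted p = 0.00303).

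Of 34 angiogenic signalling genes 6 were higher and 3 lower, the lower ones including Apln and Aplnr, which were already counted above. Without control replicate 1 none was lower, and without control replicate 3 or 16-week replicate 1, 3 were higher. Angpt2, which antagonizes the Tie2 receptor, was 0.58 to 1.34 in the controls and 1.58 to 2.08 at 16 weeks, a rise of 0.98 ± 0.20 (adjusted p = 0.00655). Its counterpart Angpt1 differed by -0.96 ± 0.27 (adjusted p = 0.0327), a call lost without control replicate 1, 3 or 4 or 16-week replicate 2 or 3 (adjusted p up to 0.101). Vegfd, a lymphatic growth factor, rose from -1.72 to -1.39 in the controls to 0.83, -0.52, -0.66 and -1.01 at 16 weeks (adjusted p = 0.0118), and the guidance molecule Sema3d rose by 1.01 ± 0.21. Endothelin-1 (Edn1) rose by 0.95 ± 0.24 (adjusted p = 0.0195), a call lost without control replicate 3 or 16-week replicate 1 (adjusted p up to 0.07). In the list of atrial, adipocyte, Schwann, mesothelial and red cell markers the Schwann cell factor Sox10 was lower (-0.53 ± 0.14, adjusted p = 0.0238) and Mbp higher (0.34 ± 0.10, adjusted p = 0.044). Leaving out single arrays ended the call, for Sox10 without control replicate 1, 3 or 4 or 16-week replicate 3 (adjusted p up to 0.0752) and for Mbp without any single array (adjusted p up to 0.112).

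Genes of the circadian clock were called in both directions. In heart cells Bmal1 and its partners Clock and Npas2 drive genes such as Per, Nr1d, Dbp, Tef and Hlf through E-boxes, and several of these products feed back on the activators. At 16 weeks 4 of 22 clock genes were higher and 7 lower. Bmal1 was -0.30, -0.22, 0.11 and -0.51 in the controls and 0.79, 2.55, 2.02 and 1.96 at 16 weeks, a rise of 2.06 ± 0.39 (adjusted p = 0.00423), and all 4 arrays lay above the controls. Npas2, Clock and Nfil3, a repressor of D-box genes, rose by 1.51 ± 0.46, 0.64 ± 0.17 and 0.60 ± 0.15 (adjusted p = 0.0499, 0.0245 and 0.0168). Single arrays decided the call, which was lost for Npas2 without any array except 16-week replicate 1 (adjusted p up to 0.142), Clock without control replicate 1, 3 or 4 or 16-week replicate 1 or 2 (adjusted p up to 0.0777) and for Nfil3 without control replicate 3 (adjusted p up to 0.0584). The number of higher clock genes without 1 array was 1 to 3, with 1 without control replicate 3.

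All 7 lower clock genes were kept whichever array was left out. Besides Dbp they were Bhlhe41, a repressor that competes for E-boxes (-1.17 ± 0.18, adjusted p = 0.00124), Tef (-0.99 ± 0.16, adjusted p = 0.00202), the deubiquitinase Usp2 (-0.99 ± 0.18, adjusted p = 0.00374), Per3 (-0.96 ± 0.21), Nr1d2 (-0.96 ± 0.21) and Hlf (-0.82 ± 0.18). Tef was 3.63, 3.56, 3.24 and 3.29 in the controls and 2.46, 2.42, 2.26 and 2.62 at 16 weeks. Usp2 was 4.22 to 4.46 and 3.15 to 3.43. Per2 was 2.71 to 3.25 in the controls and 2.42, 1.60, 2.38 and 1.40 at 16 weeks, all lower, but with a difference of -0.95 ± 0.35 it was not called (adjusted p = 0.0999). It was called without centring (-1.07, adjusted p = 0.047) and with array level as a term (-1.29, adjusted p = 0.0342), while a dimmer probe set gave -0.08. The sources used here do not give the time of day at which the hearts were taken.

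**Figure D4:**
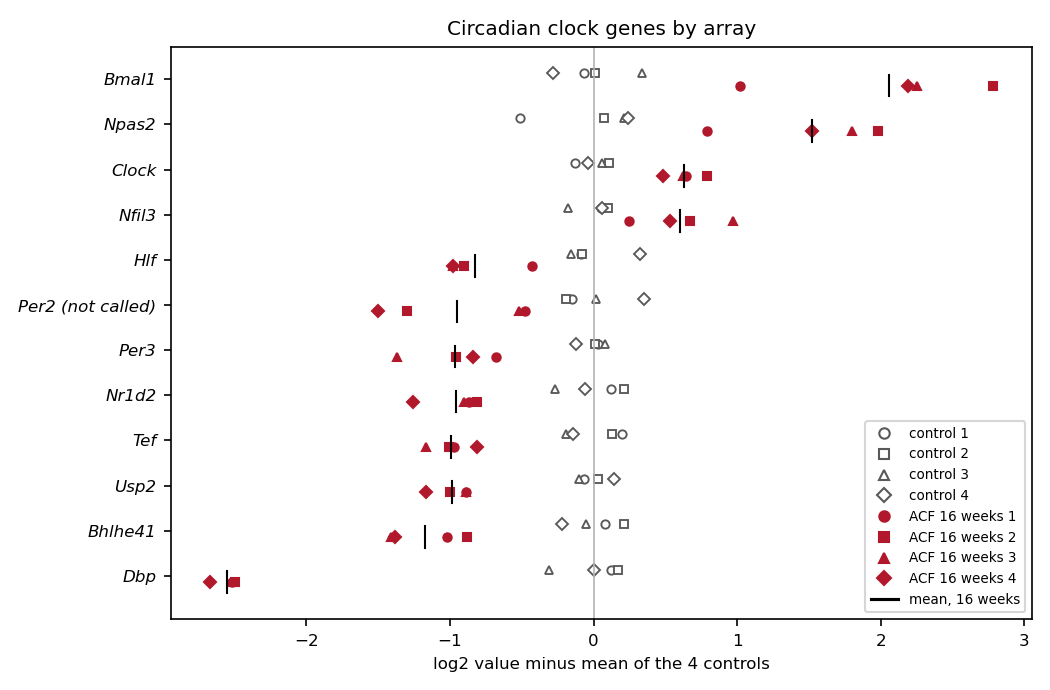
Log2 values of the 11 called clock genes and Per2 on the 4 control arrays (open symbols) and the 4 arrays at 16 weeks (red symbols), as differences from the control mean, with black lines at the mean of the 16-week arrays. Bmal1 at the top and Dbp at the bottom lie farthest from 0, at mean differences of 2.06 and -2.54.

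Promoters of the called clock genes were read for 10 of 11 genes from RefSeq (GRCr8, 250 bases before to 50 after a start site, 11 promoters). The E-box CACGTG, searched on both strands, was found in 2 of the 6 lower genes with a promoter and in none of the 4 higher genes, against 6.42% of all 33469 promoters of that length. The D-box TTATGTAA was found in none, against 0.893%. The 2 promoters with an E-box are shown, on the strand of the gene, because they belong to genes that fell. The E-box, in capitals, begins 48 bases before the start site of Bhlhe41 (chr4:180569306-180569605, minus strand) and 198 bases before that of Tef (chr7:115206577-115206876, plus strand). A match is a description of these letters, and no binding was measured.
Bhlhe41: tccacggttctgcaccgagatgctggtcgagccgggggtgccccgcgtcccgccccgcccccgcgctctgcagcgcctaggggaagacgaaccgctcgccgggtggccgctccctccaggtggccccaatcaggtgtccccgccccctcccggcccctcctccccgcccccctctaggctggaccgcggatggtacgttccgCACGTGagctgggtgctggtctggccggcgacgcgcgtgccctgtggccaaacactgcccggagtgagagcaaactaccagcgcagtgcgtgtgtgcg
Tef: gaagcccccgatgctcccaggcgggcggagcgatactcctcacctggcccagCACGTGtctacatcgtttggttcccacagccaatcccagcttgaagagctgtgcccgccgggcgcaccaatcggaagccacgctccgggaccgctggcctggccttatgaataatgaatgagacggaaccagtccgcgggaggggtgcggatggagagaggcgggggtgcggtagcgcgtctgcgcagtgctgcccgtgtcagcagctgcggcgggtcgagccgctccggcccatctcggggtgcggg

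Immediate early and stress transcription factors leaned upwards, with a median of 0.35 but 4 of 35 called and 2 without control replicate 1. Maff and Myc rose by 1.40 ± 0.27 and 1.49 ± 0.34 (adjusted p = 0.0045 and 0.0117). For Myc replicate 3 at 16 weeks was the highest, at 3.07 against 1.12 to 1.71 in the others and 0.08 to 0.89 in the controls. Runx1 (0.96 ± 0.23) and Cebpd (1.26 ± 0.31) overlapped the controls, and their calls were lost without control replicate 1 (adjusted p = 0.059) and without control replicate 1 or 2 or 16-week replicate 1 or 3 (adjusted p up to 0.0686). Among 34 unfolded protein response and heat shock genes the small heat shock protein Hspb1 alone was called (0.85 ± 0.23, adjusted p = 0.0294), a call lost without control replicate 1, 2 or 3 or 16-week replicate 1 or 2 (adjusted p up to 0.0902). The endoplasmic reticulum chaperone Hspa5 differed by 0.11 ± 0.16 (adjusted p = 0.737).

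Protein degradation, translation and the cell cycle had few called genes. The muscle ubiquitin ligases Fbxo32 (-0.16 ± 0.21, adjusted p = 0.704) and Trim63 (-0.36 ± 0.14, adjusted p = 0.116) were not called, although Trim63 was without centring (-0.48, adjusted p = 0.0453), and Bnip3, a mitophagy receptor, rose by 0.73 ± 0.15 (adjusted p = 0.00657). Cytosolic ribosomal protein genes were above 0 in 39 of 42 with a median of 0.17, which was 0.05 without centring. Only 3 were called (7.14%, near the 5.83% higher over all genes). All 4 arrays at 16 weeks lay above the controls for 20 of the 42, against 10.1% over all genes. Rpl3 rose by 0.74 ± 0.15 (adjusted p = 0.00614), Rps24 by 0.33 ± 0.10 (adjusted p = 0.0411) and Rps23 by 0.31 ± 0.09 (adjusted p = 0.0482). The call was lost for Rps24 without any array except 16-week replicate 3 (adjusted p up to 0.134) and for Rps23 without any array except 16-week replicate 3 and 4 (adjusted p up to 0.15). Of 46 cell cycle genes 3 were higher (6.52%, near the 5.83% over all genes), and 1 without control replicate 3 or 4. The cell cycle inhibitor Cdkn1a was 2.01 to 2.89 in the controls and 3.09 to 4.24 at 16 weeks, a rise of 1.18 ± 0.25 (adjusted p = 0.00749). Aurkb and Ect2, mitotic genes with low values, rose by 0.59 ± 0.15 and 0.60 ± 0.15. Leaving out single arrays ended the call, for Aurkb without control replicate 3 or 4 or 16-week replicate 3 (adjusted p up to 0.0573) and for Ect2 without any array except 16-week replicate 2 and 4 (adjusted p up to 0.0726). The proliferation marker Mki67 differed by 0.45 ± 0.20 (adjusted p = 0.173).

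Mitochondrial genes, a class that includes the glucose and fatty acid lists, were shifted downwards by small amounts. Of 240 distinct genes 201 were below 0 and 40 were called lower (16.7%). Over all genes, 7164 of 14218 were below 0 and 3.26% were called lower. Relative to the control mean, list means by array met or overlapped for several lists. The lowest control was -0.08 for the respiratory chain, -0.09 for the tricarboxylic acid cycle and -0.16 for mitochondrial ribosomal proteins. The highest 16-week array was -0.08, -0.09 and -0.09. Fatty acid oxidation (-0.04 and -0.1) and branched-chain and ketone genes (-0.12 and -0.14) did not overlap. The respiratory chain was below 0 in 55 of 59 genes with a median of -0.14, yet 2 were called (3.39%, near the 3.26% lower over all genes). They were the complex I subunits Ndufs8 (-0.43 ± 0.11, adjusted p = 0.0253) and Ndufs3 (-0.42 ± 0.12, adjusted p = 0.0359). None was called without control replicate 1, 2 or 3 or 16-week replicate 1 or 2 (adjusted p up to 0.0919 and 0.119). Other scalings gave more: 11 respiratory chain genes were lower without centring, 6 with centring on the genes tested and 7 on arrays at the higher level only. All 20 tricarboxylic acid cycle genes were below 0, with a median of -0.20. Dlst and Ogdh, subunits of 2-oxoglutarate dehydrogenase, differed by -0.51 ± 0.11 and -0.49 ± 0.12, and Suclg2 by -0.34 ± 0.10, and 1 gene of the cycle was lower without control replicate 1 or 2. Under the same 3 settings 7, 6 and 6 genes of the cycle were lower. Ogdh was 6.85 to 6.91 in the controls and 5.90, 6.44, 6.61 and 6.61 at 16 weeks, so that replicate 1 stood lowest. Single arrays decided the call, which was lost for Ogdh without control replicate 1 or 2 (adjusted p up to 0.0527) and for Suclg2 without any array except control replicate 4 and 16-week replicate 3 (adjusted p up to 0.127).

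Mitochondrial ribosomal protein genes were lower in 9 of 65 and below 0 in 60, with a median of -0.22. Mrpl38 was 2.38 to 2.69 in the controls and 1.28, 1.86, 1.91 and 2.02 at 16 weeks, with a difference of -0.71 ± 0.15 (adjusted p = 0.00847). Mrps28, Mrps24 and Kgd4 differed by -0.52 ± 0.13, -0.45 ± 0.12 and -0.38 ± 0.10, and Kgd4, once counted with the ribosome, belongs to 2-oxoglutarate dehydrogenase. The call was lost for Mrps28 without control replicate 1 or 2 or 16-week replicate 1 or 2 (adjusted p up to 0.0784), Mrps24 without any array except 16-week replicate 3 and 4 (adjusted p up to 0.0955) and for Kgd4 without any array except control replicate 4 and 16-week replicate 4 (adjusted p up to 0.0896). With control replicate 1, control replicate 2, 16-week replicate 1 or 16-week replicate 2 left out, 1 of the 65 genes was lower, and the median without 16-week replicate 1 was -0.20. Without centring 19 were lower, with centring on the genes tested 16, and on arrays at the higher level 24.

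Of 34 fatty acid oxidation genes 12 were lower and none higher, with a median of -0.32, but 3 were lower without 16-week replicate 1 (median -0.27). Without centring 19 were lower, with centring on the genes tested 15, and on arrays at the higher level 18. Hadh, the short-chain 3-hydroxyacyl-CoA dehydrogenase, was 6.22 to 6.51 in the controls and 4.85, 5.33, 5.68 and 5.72 at 16 weeks, with a difference of -0.98 ± 0.19 (adjusted p = 0.00456). Hadha, the trifunctional protein α subunit, differed by -0.53 ± 0.12 (adjusted p = 0.0127), Eci1 by -0.73 ± 0.17 (adjusted p = 0.0139) and Acaa2 by -0.69 ± 0.17 (adjusted p = 0.0161). The calls of Eci1 and Acaa2 were lost without replicate 1 at 16 weeks, and that of Acaa2 also without control replicate 3 (adjusted p up to 0.0511 and 0.0579).

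Branched-chain amino acid and ketone body genes gave 6 lower and 3 higher of 25, with a median of -0.31 and 2 to 7 lower whichever array was left out, the fewest without control replicate 1, and 15 without centring, 9 with centring on the genes tested and 10 on arrays at the higher level. Bckdha, a subunit of the branched-chain ketoacid dehydrogenase, was 4.27 to 4.45 in the controls and 2.62, 3.40, 3.52 and 3.89 at 16 weeks, with a difference of -0.98 ± 0.21 (adjusted p = 0.00893), and the leucine pathway enzyme Auh differed by -0.50 ± 0.11. The monocarboxylate carriers Slc16a1 and Slc16a3 rose by 0.61 ± 0.12 and 0.51 ± 0.09 (adjusted p = 0.00614 and 0.00334), although a second Slc16a1 probe set gave -0.19. Of 24 glycolysis and glucose uptake genes 2 were higher and 6 lower, with a median of 0.01 that was -0.11 without centring, and 2 were lower without control replicate 1 or 2. Muscle-type Pgam2 fell by 0.88 in log2 (SE 0.21, adjusted p = 0.0143) and Pfkfb1 by 0.80 (SE 0.17, adjusted p = 0.00745), while the isoforms Pfkp and Eno2 rose by 1.39 ± 0.21 and 1.46 ± 0.35. The call of Eno2 was lost without control replicate 1 or 16-week replicate 2 (adjusted p up to 0.0529).

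In the phosphotransfer list 2 of 17 genes were lower and none higher. Muscle creatine kinase (Ckm) was 7.69, 7.64, 7.42 and 7.48 in the controls and 6.13, 6.87, 7.39 and 7.37 at 16 weeks, all lower, but with a difference of -0.62 ± 0.20 it was not called (adjusted p = 0.062). Ckm was called without centring (-0.73, adjusted p = 0.0146), with array level as a term (-0.89, adjusted p = 0.0055) and on arrays at the higher level (-1.05, adjusted p = 0.00478). Adss1, the muscle adenylosuccinate synthase, was 4.13 in replicate 1 at 16 weeks and 5.28 to 5.64 in the others, against 5.98 to 6.10 in the controls (-0.89 ± 0.23, adjusted p = 0.0235), and Gamt, which makes creatine, differed by -0.45 ± 0.13 (adjusted p = 0.0369). Leaving out single arrays ended the call, for Adss1 without control replicate 1, 2 or 3 (adjusted p up to 0.0586) and for Gamt without any array except control replicate 4 and 16-week replicate 3 (adjusted p up to 0.132).

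**Figure D5:**
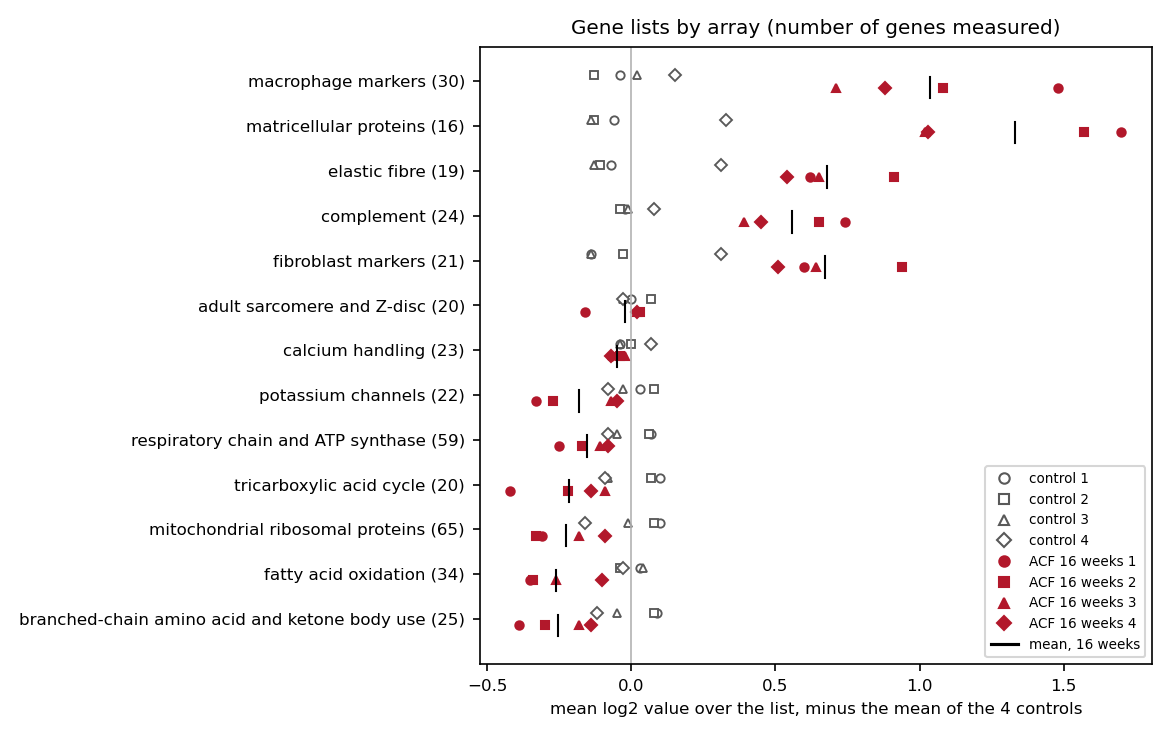
Mean log2 value over the measured genes of 13 lists on the 4 control arrays (open symbols) and the 4 arrays at 16 weeks (red symbols), as a difference from the control mean, with black lines at the mean of the 16-week arrays. Replicates 1 and 2 at 16 weeks, the arrays with the higher deposited median, lie farther from 0 than replicates 3 and 4 for macrophage markers, matricellular proteins, potassium channels and fatty acid oxidation.

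Redox and xenobiotic enzymes split. Of 46 antioxidant and glutathione genes 6 were higher and 4 lower, with 4 to 8 higher and 1 to 4 lower whichever array was left out. The count of lower genes was 1 without control replicate 1, 2 or 4 or 16-week replicate 1 or 2. Cybb, the phagocyte NADPH oxidase subunit, was 1.80 to 1.98 in the controls and 3.72, 3.48, 2.98 and 3.49 at 16 weeks, a rise of 1.54 ± 0.17 (adjusted p = 0.00019). Metallothionein Mt2A was 6.09 in replicate 1 at 16 weeks and 3.70 to 4.25 in the others, against 2.23 to 2.82, a rise of 2.02 ± 0.38 (adjusted p = 0.00418). Gclc, the rate-limiting subunit of glutathione synthesis, rose by 0.59 ± 0.13, and the glutathione transferase Gsta4 fell by 0.83 in log2 (SE 0.12, adjusted p = 0.00108).

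Among epoxide hydrolases, cytochrome P450s, eicosanoid enzymes and carbonic anhydrases 8 of 31 were lower and 4 higher, and 4 were lower without control replicate 1, control replicate 3 or 16-week replicate 1. The lower genes included the carbonic anhydrases Car2, Car4 and Car14, whose calls were kept whichever array was left out. Car9 and Car11 differed by -0.46 ± 0.13 and -0.38 ± 0.11 (adjusted p = 0.0386 and 0.0391). Their calls were lost, for Car9 without control replicate 1 or 3 or 16-week replicate 1, 2 or 4 and for Car11 without any array except 16-week replicate 2 and 4 (adjusted p up to 0.128 for both). Car2 was 2.25 to 2.57 in the controls and 1.39 to 1.62 at 16 weeks, with a difference of -0.91 ± 0.11 (adjusted p = 0.000289), and Car14 differed by -0.53 ± 0.11 (adjusted p = 0.0085). Alox5ap, which leukotriene synthesis needs, rose by 0.89 ± 0.18 (adjusted p = 0.0057).

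The 16-week and the 8-week arrays were compared directly to ask whether the changes above were particular to 16 weeks, since both share the control arrays. No gene differed between 16 and 8 weeks at an adjusted p under 0.05 with limma, and 1235 genes did at an unadjusted p under 0.05. Restricted to arrays at the higher median level, which leaves 2 arrays at 16 weeks against 3 at 8 weeks, 236 genes differed. Among the named genes the smallest adjusted p was that of Pdpn, with a difference of 0.86 between 16 and 8 weeks (adjusted p = 0.13). Its values were 2.05 to 2.83 at 16 weeks and 1.21 to 1.83 at 8 weeks. Postn was 2.12 to 2.79 at 8 weeks and Tmem119 was -0.45 to 0.36, below all 4 arrays at 16 weeks in both cases, with differences of 1.99 and 2.07 (adjusted p = 0.305 and 0.184). For Dbp the 8-week arrays ran from 0.55 to 3.17, across the ranges of both groups. The titles number the arrays within a group and do not say that same-numbered arrays are linked. Same-numbered control and 16-week arrays deviated from their group means with correlations of 0.03, 0.04, 0.05 and -0.32. These values alone cannot settle whether the animals were linked.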

How the data were processed

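Left ventricular RNA of 16 rats, 4 per group, was hybridised to 1 array each. The authors deposited log2 values made by robust multi-array averaging (RMA) in Affymetrix Expression Console 1.2, one value per probe set, with replicates kept apart. The deposited log2 values carry no detection calls. The study's methods and the platform annotation name different Affymetrix rat arrays, and the files follow the annotation, with 31099 probe sets (57 of them controls, kept in the array medians). Of these, 20832 have 1 gene symbol in GEO's platform annotation, 436 have several and 9831 were not named here.

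Each array was centred on its median, and a gene was taken as its probe set with the highest mean over all 16 arrays, giving 14218 genes. The 16 arrays in 4 groups entered a single limma model (version 3.58.1, R 4.3.3), so that all groups share the estimate of the spread, and Benjamini-Hochberg adjusted p-values under 0.05, computed across the 14218 genes, were called. The steps were tested on simulated data. For arrays there is no read depth, and the 4 arrays of a group limit the precision. The labels do not say more of how the animals were housed or sampled. The limma p-values weigh a difference of means against the spread between arrays within the 4 groups.

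Genes named are the 15 largest rises and 15 largest falls among called genes without overlap, up to 4 called genes of each list with the smallest adjusted p, and a fixed set of well known genes, which gave 180 genes (156 called). Members of short called lists were also named. The cell type markers, the 44 lists and their members were chosen with earlier results of these data known. Of the list members 1150 genes were measured. Alternatives covered the centring, normalization, samples, thresholds, array level, probe set choice, replicate block and leaving out each array. Centring on the median of the tested genes was chosen after seeing the data. The titles do not say that same-numbered arrays of the compared groups are linked, so the numbers were not used as pairs.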

Additional observations from a re-analysis of the deposited data

Results flagged for a closer look

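In 21 of 360 groups of 4 arrays (5.83%), 14 of them control and 7 of them 16-week groups, 1 array lay far from the other 3, and chance alone marks about 1 in 20 groups. Control replicate 4 was the high array in 10 of the 21. Its values were 2.07 for Postn, 3.67 for Col14a1, 4.01 for Col1a1, 5.64 for Col3a1, 4.18 for Mfap5, 0.73 for Vcan, 6.80 for Dcn, 1.90 for Fstl3, 2.61 for Il1r1 and 2.96 for Islr. The other 3 controls lay at 3.21 to 3.32 for Col1a1 and at 1.96 to 2.07 for Islr. The same array had the highest Myl7, Myl4 and Sln values, and their part in these values was not tested.

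Other controls stood apart for 4 genes. Control replicate 3 was low for Edn1, at -1.14, and high for Pfkfb1, at 0.60, and Slc16a3, at -0.06, and control replicate 1 was low for Myh7, at 7.71. At 16 weeks replicate 1 was high for Mrc1, at 4.44, and Slc16a1, at 6.77. Replicate 3 was high for Npr3, at 1.33, RT1-DMb, at 2.82, and Il6, at -1.47. Replicate 4 was low for Dbp, at 0.93, and Eln, at 0.89. The 3 other Dbp arrays lay at 1.08 to 1.10, so this gap is small beside the fall from the controls.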

How the results depend on the processing

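Against 829 higher and 463 lower genes, the values as deposited gave 359 and 1006, the methods' test with adjustment over all genes 154 and 66, and adjusted p with a fold above 1.5 gave 482 and 213. The lower genes were 752 after quantile normalization, 708 with arrays at the higher level only, 268 at an unadjusted p with a fold above 1.5 and 714 with centring on the median of the genes tested, chosen after seeing the data. Leaving out 1 array gave 450 to 938 higher and 196 to 632 lower genes, with the fewest without control replicate 1 and the most without 16-week replicate 4. With the replicate number as a block, 846 genes were higher and 442 lower, and 148 of the 156 named calls were kept. Genes with all 4 arrays above or below the controls, 1436 and 898, were 506 and 2053 as deposited, and those below were 1352 after quantile normalization and 1415 with centring on the genes tested. The difference between 16 and 8 weeks, 0 genes, was 1 with trend and robust options, 1 with array weights, 236 with arrays at the higher level only and 1 to 6 without 1 array at 16 weeks. The cause of these changes was not tested. Of the 156 named calls, 145 were kept with array level as a term, 143 with arrays at the higher level only, 37 with the methods' test and 112 whichever array was left out, and none changed sign.

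Of the 1292 calls 2 changed sign when probe sets of a gene were averaged, neither of them among the named genes. The named genes that changed sign were not called. As deposited, the difference was -0.04 for Acta1, -0.10 for Atp2a2, -0.04 for Pln, -0.06 for Ryr2 and -0.01 for Hspa5. Atp2a2 was also -0.03 with array level as a term, -0.04 at the higher level only, -0.06 with probe sets of a gene averaged and -0.03 with centring on the genes tested. Pln and Ryr2 were -0.05 and -0.14 with probe sets averaged, and Ryr2 was -0.02 at the higher level only. Tgfb1 was 0.07 with array weights. Leaving out 1 array gave -0.01 to 0.06 for Atp2a2, -0.32 to 0.12 for Kcnip2, -0.13 to 0.13 for Tgfb1 and -0.09 to 0.22 for Hspa5, with the sign turned by 16-week replicate 4 for Atp2a2, 16-week replicate 1 for Kcnip2, control replicate 4 or 16-week replicate 1 for Tgfb1 and 16-week replicate 2 for Hspa5.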
